A study of Mus musculus with 4 samples.

Results

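The genes described here are 37 mouse genes of glucose entry, glycolysis, lactate and pyruvate handling and glycogen turnover, chosen by name and found in all 4 count tables by matching Ensembl identifiers to symbols. They were 37 of 50686 genes listed for the hip and 37 of 54838 listed for the knee, and each had at least 10 counts over its pair of libraries, so that none was lost to a filter on low counts. Of these, 7 were taken as the isoforms used mainly by skeletal muscle (Pfkm, Pgam2, Eno3, Pygm, Slc2a4, Phka1 and Phkg1), and they were set beside the other 30. The other 30 are not free of muscle transcripts, since Hk2, Pkm, Ldha and Gys1 among them are used by muscle as well. The libraries were poly-A RNA-seq of whole tissue labelled articular cartilage, the smooth cartilage that covers the bone ends of a joint, although the extraction notes in the labels speak of osteoblasts.

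Each joint gave 1 control library and 1 library called here Cbfb-deficient from its genotype and treatment labels, or the deficient-labelled library for short. In all 4 libraries Cbfb was floxed on both alleles (Cbfβf/f). Cbfb encodes the partner protein of the RUNX transcription factors. In the hip, the control was labelled Cbfβf/f with no treatment and no Cre transgene, although the study's methods speak of tamoxifen or oil for that genotype, and the other library came from tamoxifen-injected Cbfβf/f;Col2α1-CreERT, from males aged 6 weeks by one description and 2 months by another. In the knee, both libraries came from Cbfβf/f;Aggrecan-CreERT males aged 12 weeks, with an injection of oil in the control and of tamoxifen in the other. The Cre in these lines is active only after tamoxifen and in cells that use the Col2a1 or the aggrecan promoter. By their labels the hip libraries differ in tamoxifen and in the transgene as well as in the deletion, and whether the hip control was injected is not settled. By the study's account, the hip samples held cartilage only and the knee samples held bone as well. The joints thus differ in Cre line, age, kind of control, tissue content and in the form and gene set of the count tables, effects that cannot be told apart. With 1 library per group there is no replicate error and no test, and each ratio below compares 2 libraries rather than 2 conditions.

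Glycolysis splits glucose into pyruvate in the cytosol and yields ATP without oxygen. Articular cartilage has no blood vessels, and its chondrocytes make most of their ATP by glycolysis and release lactate. Skeletal muscle burns both blood glucose and its own glycogen store, and it does so with its own isoforms of several enzymes, so that a sample holding both tissues holds both sets of transcripts.

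Depth and tissue content were read before the members. The libraries held 34264456 to 38473120 counts on genes, so the floor of 3 counts stood at 0.078 to 0.0876 CPM (counts scaled to the library total). Counts of Cbfb itself were 2548 in the hip control and 2946 in the deficient-labelled hip library, with 0.41 as the log2 ratio (0.33 to 0.48 as the 95% counting interval). In the knee they were 3796 and 4572, giving -0.07 (-0.13 to -0.01), or 0.11 when scaled by library size alone. The hip ratio went against the label, although it was -0.27 when corrected for transcript length and GC content as described below, and that of the knee was close to 0. A count over the whole gene does not show whether an exon was removed, so the libraries are named by their labels throughout. In the hip libraries, 24 skeletal muscle markers took 16.7% of gene counts in the control and 17.5% in the library labelled Cbfb-deficient, while the chondrocyte markers took 0.026% and 0.0106%. Col2a1, the main collagen of cartilage, stood at 9.2 and 6.59 CPM there, and Matn1 had 3 counts and 1 count. The 16 chondrocyte markers ranged from 0.078 to 123 CPM in the hip control, with Comp, a cartilage matrix protein, the highest, and from 6.48 to 2550 CPM in the knee control. All 16 were lower in both hip libraries than in either knee library, with levels set across separately counted tables. In the knee libraries, the chondrocyte markers took 0.641% and 0.315%, the muscle markers 1.21% and 2.56%, and the erythroid markers 9.98% and 4.94%. In such bulk samples fewer cells of a type and less RNA per cell cannot be told apart.

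Promoters of 3 members are shown because the results turn on them: Pgam2 and Pygm, the muscle-type isoforms with the largest fall in the hip and the highest ratio in the knee, and Ldha, whose window held the most matches to the hypoxia response element core of any member. The sequences are RefSeq windows of GRCm38.p6, the 250 bases before the annotated start, 5′ to 3′ on the strand of the gene, from chr11:5803797-5804046 (minus strand), chr19:6384158-6384407 (plus strand) and chr7:46845554-46845803 (plus strand). Capitals mark matches on either strand to ACGTG (the hypoxia response element core), CANNTG (the E-box, a site of myogenic and other factors) and the MEF2 box, a motif of muscle genes, and the letters CACGTG match both ACGTG and CANNTG.
Pgam2: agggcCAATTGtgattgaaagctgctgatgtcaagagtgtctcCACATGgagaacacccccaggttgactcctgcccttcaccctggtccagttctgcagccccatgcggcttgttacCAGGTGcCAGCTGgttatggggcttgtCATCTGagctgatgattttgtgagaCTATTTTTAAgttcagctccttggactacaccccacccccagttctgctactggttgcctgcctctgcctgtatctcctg
Pygm: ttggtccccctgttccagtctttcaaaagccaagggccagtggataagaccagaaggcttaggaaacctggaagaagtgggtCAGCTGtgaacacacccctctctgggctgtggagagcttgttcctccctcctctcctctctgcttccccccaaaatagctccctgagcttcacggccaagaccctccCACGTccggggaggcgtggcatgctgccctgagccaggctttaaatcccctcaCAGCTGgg
Ldha: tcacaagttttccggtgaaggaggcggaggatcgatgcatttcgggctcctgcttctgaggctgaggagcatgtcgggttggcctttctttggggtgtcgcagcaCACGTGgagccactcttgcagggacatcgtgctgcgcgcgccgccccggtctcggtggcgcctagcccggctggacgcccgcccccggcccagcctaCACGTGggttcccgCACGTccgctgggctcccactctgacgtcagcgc
The Pgam2 stretch held 5 E-boxes and 1 MEF2 box, that of Pygm 1 hypoxia element core and 2 E-boxes, and that of Ldha 5 matches to the hypoxia element core at 3 places. RefSeq windows were at hand for 35 of the 37 members (53 windows, each with 50 more bases past the start), and not for Slc2a3 and Slc2a4. The core ACGTG was in 43.4% of the member windows and in 19.6% of all 32851 windows, which were also less rich in G and C, with a median GC content of 52.7% against 60.3% in the members. CANNTG was in 71.7% of member windows and 72.3% of all, and the MEF2 box in 3.77% and 3.19%. TGTGGT, the core that RUNX factors bind, was in 11.3% of member windows, 16.8% of all windows and 0 of the 9 windows of the muscle-type members. These matches describe letters in a window and no binding was measured.

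Levels between genes were compared as RPKM, here the CPM divided by the length of the canonical GENCODE transcript in kilobases. In the hip control, Aldoa (aldolase, which splits fructose 1,6-bisphosphate) was first at 12847 RPKM, followed by Gapdh at 7080, Eno3 at 3917, Pgam2 at 3428 and Pygm at 2476. In the knee control, Aldoa was again first at 1540 RPKM, followed by Ldha at 660, Pgam2 at 573, Gapdh at 567 and Pkm at 470. Aldoa, Gapdh and Pgam2 were among the first 5 in both controls. Muscle-type isoforms took 3 of the first 5 places in the hip control and 1 in the knee control. At the other end, Aldoc (the brain-type aldolase) stood at 0.112 to 1.32 RPKM and Eno2 (the neuron-type enolase) at 0.491 to 1.27 over the 4 libraries. All 37 members together took 6.67% of gene counts in the hip control and 4.37% in the hip library labelled Cbfb-deficient, against 1.08% and 1.61% in the knee. The summed share was thus lower than the control's in the deficient-labelled hip library and higher in that of the knee.

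**Figure D1:**
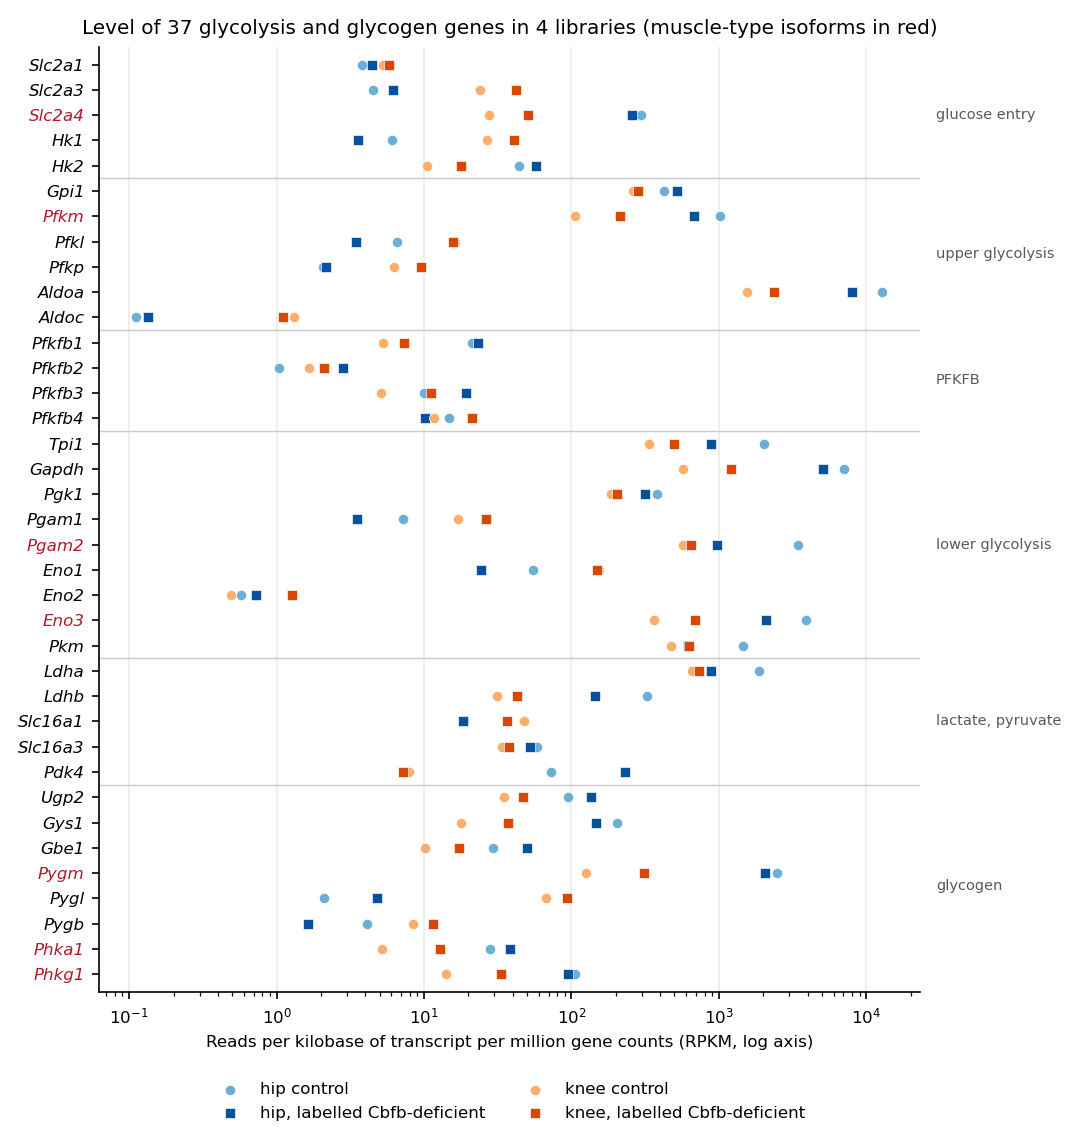
Level of each of the 37 genes in the 4 libraries, on a log axis in RPKM. Each point is 1 library (circles for controls, squares for libraries labelled Cbfb-deficient, blue for hip and orange for knee), the genes are in order of role, and muscle-type isoforms are named in red. The blue hip points of the red-named genes lie to the right of the orange knee points, as for Pygm, whose hip points are at 2476 and 2061 RPKM and whose knee points are at 126 and 312.

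Within a pair, the log2 ratio set the library labelled Cbfb-deficient over its control after TMM scaling (a scaling that centres most genes at equal level). A gene was called higher or lower when the ratio was at least 1 in size and its 95% interval for counting error excluded 0. In the hip, 3 members were called higher, 8.11% of them, where the same rule called 20.2% of the 19856 genes tested, and 7 were called lower, 18.9% of them, where it called 16.3% of all. Counting intervals lay above 0 for 12 members (32.4%, against 37.3% of all genes) and below 0 for 21 (56.8%, against 33.7%). In the knee, 4 members were called higher, 10.8% of them beside 9% of the 21131 genes tested, and 0 lower beside 6.81%. Counting intervals lay above 0 for 25 members (67.6%, against 31.9% of all genes) and below 0 for 7 (18.9%, against 29.7%). The shares called were thus near the background (hip lower, knee higher) or under it (hip higher, knee lower). Abundant genes have narrow intervals, so a ratio near 0 can still exclude it and the shares of intervals depend on abundance. By sign alone, 21 of 37 members were below 0 in the hip beside 9822 of 19856 genes tested, and 27 of 37 above 0 in the knee beside 10818 of 21131. Once corrected for length and GC as described next, 16 hip intervals of members lay above 0 and 17 below. The median log2 ratio of the members was -0.16 in the hip and 0.40 in the knee, beside 0.01 and 0.02 over all genes tested. Below, a ratio corrected for length and GC had the median over genes of like transcript length subtracted and then that over genes of like GC content. The median over all genes was kept. On that scale the medians of the members were -0.00 and 0.34. Scaling by library size in place of TMM moved all ratios of the knee up by 0.18 and those of the hip by -0.04.

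**Figure D2:**
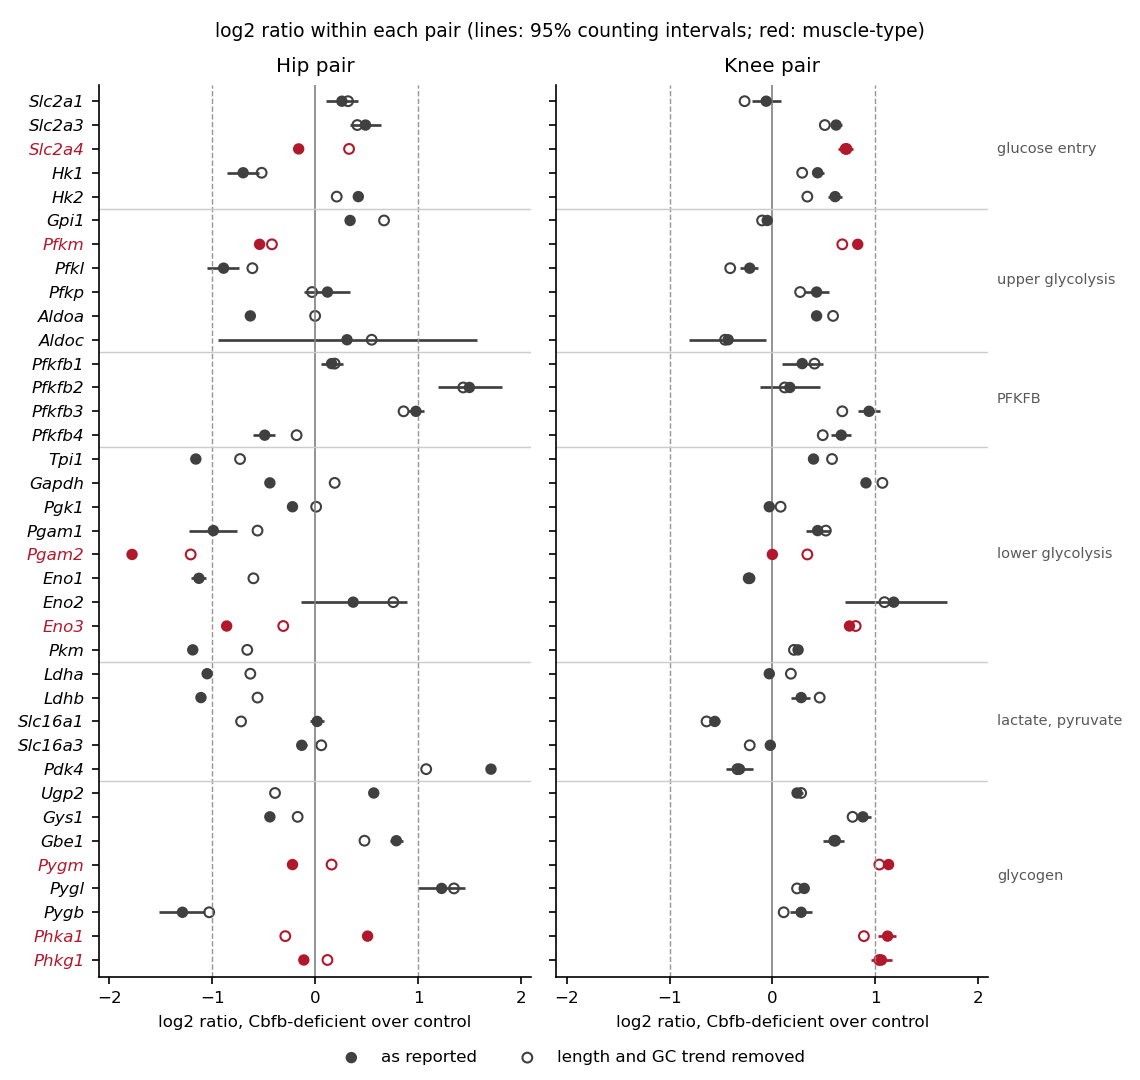
log2 ratio of each gene within the hip pair (left) and the knee pair (right), library labelled Cbfb-deficient over control. Filled points are the ratios as reported with lines for the 95% counting interval, open points are the same corrected for length and GC, dashed lines mark ratios of 1 and -1, and muscle-type isoforms are in red. In the hip the lower glycolysis genes lie mostly to the left of 0, and in the knee all 8 glycogen genes lie to the right of it.

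Glucose entry and the first phosphorylation gave 5 members, none of them called in either joint. Of all genes tested, the rule called 36.5% in the hip and 15.8% in the knee. The insulin-responsive transporter Slc2a4 (GLUT4) stood at 297 RPKM in the hip control and 258 in the deficient-labelled library, with a log2 ratio of -0.16 (-0.18 to -0.13). In the knee the values stood at 27.5 and 51.1 RPKM, a log2 ratio of 0.71 (0.64 to 0.78). The hip libraries thus held more Slc2a4 than those of the knee, and its ratio was above 0 in the knee pair alone, although the hip value was 0.33 once corrected for length and GC. Slc2a3 (GLUT3), a high-affinity transporter, had log2 ratios of 0.49 in the hip (685 and 840 counts) and 0.62 in the knee (3276 and 6379 counts). Slc2a1 (GLUT1), the widely used transporter, had 648 and 678 counts in the hip, a log2 ratio of 0.26, and 807 and 979 in the knee, a ratio of -0.06 that was 0.12 under library size scaling and -0.27 once corrected. Slc2a4 led the 3 transporters by far in the hip, whereas in the knee control Slc2a3, at 24.1 RPKM, came close to it. Of the hexokinases, which trap glucose by phosphorylation, Hk2 (the inducible form of muscle and fat) had 13268 and 15502 counts in the hip, a log2 ratio of 0.42 (0.21 once corrected), and Hk1 (the form of most tissues) had 993 and 532, a ratio of -0.70. Per kilobase, Hk2 stood 7.34-fold over Hk1 in the hip control and 16-fold over it in the other hip library, whereas in the knee it stood at 0.39 and 0.437 of Hk1. The hexokinase balance thus differed between the joints more than within either pair.

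Upper glycolysis gave 6 members, again with none called. Pfkm, the muscle phosphofructokinase that commits sugar to glycolysis, had 157155 and 94442 counts in the hip, 1022 and 683 RPKM, a log2 ratio of -0.54 (-0.55 to -0.53). Its knee counts were 14425 and 32492, or 105 and 213 RPKM, a ratio of 0.83 (0.80 to 0.86), which reached 1.01 under library size scaling. Its liver-type counterpart Pfkl was at -0.89 in the hip (1037 and 486 counts) and -0.22 in the knee (2288 and 2479 counts, -0.41 once corrected), and the platelet-type Pfkp at 0.12 and 0.43, or -0.03 and 0.27 once corrected. In the knee, Pfkm and Pfkl thus differed in sign. Aldoa had 746856 and 420028 counts in the hip, a log2 ratio of -0.63 that was -0.00 once corrected for length and GC, and 79710 and 136139 counts in the knee, a ratio of 0.43. Gpi1, which turns glucose 6-phosphate into fructose 6-phosphate, was at 0.34 in the hip (0.67 once corrected) and at -0.05 in the knee, where library size scaling gave 0.13. Aldoc had 12 and 13 counts in the hip, where its interval from -0.94 to 1.57 held 0, and a ratio of -0.43 in the knee. Over the 6 genes the median was -0.21 for the hip, or -0.01 once corrected, and 0.19 for the knee.

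The 4 PFKFB enzymes make and remove fructose 2,6-bisphosphate, the strongest activator of phosphofructokinase. Pfkfb2, the heart-type form (ENSMUSG00000026409, chromosome 1 of GRCm39 from 130616779 to 130656990, minus strand), rose in the hip from 122 to 301 counts, 1.04 to 2.84 RPKM, 2.82-fold (log2 counting interval 1.19 to 1.82). Counts of 173 and 246 in the knee gave a ratio of 0.17 (-0.12 to 0.46). Pfkfb3, the form with the highest ratio of kinase to phosphatase activity, lay just outside a call in both joints, with 2175 and 3739 counts in the hip, a ratio of 0.98, and 991 and 2409 in the knee, a ratio of 0.94 that became 1.12 under library size scaling. Once corrected its ratios were 0.86 and 0.68. Pfkfb4 differed in sign between the joints, at -0.49 (-0.18 once corrected) and 0.67, and Pfkfb1, the form of liver and muscle, was at 0.16 and 0.29.

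Lower glycolysis, from triose phosphate to pyruvate, held 4 of the 7 falls of the hip and the largest of them. The median over its 9 members was -0.99 on the log2 scale for the hip, with 8 counting intervals below 0 and 0 above it, and 0.40 for the knee, with 6 above and 1 below. Of all genes tested, 16.3% were called lower in the hip. Intervals lay below 0 for 33.7% and above 0 for 37.3% of all genes in the hip, and for 29.7% and 31.9% in the knee. Pgam2, the muscle phosphoglycerate mutase (ENSMUSG00000020475, chromosome 11 of GRCm39 from 5751636 to 5753760, minus strand), fell in the hip from 114749 to 29090 counts, 3428 to 967 RPKM, a 3.44-fold lower level and a log2 ratio of -1.78 (-1.80 to -1.76). The knee pair held 17071 and 21645 counts, 573 and 651 RPKM, a ratio of 0.00 (-0.03 to 0.03). Its fall was the largest of any member in the hip, and it alone of the muscle-type isoforms had a knee interval that held 0. Its gene body overlaps Dbnl on the other strand. The transcript is also the shortest of the members, at 870 bases, and its ratios once corrected for length and GC were -1.21 in the hip and 0.34 in the knee. Pgam1, the mutase of most tissues, lay just outside a call in the hip at -0.99 (497 and 218 counts), or -1.01 with its 2 named copies added and -0.56 once corrected, and was at 0.44 in the knee (1054 and 1815 counts).

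Tpi1, triose phosphate isomerase (ENSMUSG00000023456, chromosome 6 from 124787549 to 124791273, minus strand), fell in the hip from 124710 to 48781 counts, 2017 to 878 RPKM, a log2 ratio of -1.16 (-1.17 to -1.14). The knee counts of 18386 and 30637 gave a ratio of 0.40. Pkm, the pyruvate kinase of muscle and most other tissues (ENSMUSG00000032294, chromosome 9 from 59563364 to 59586663, plus strand), fell from 137296 to 52377 counts in the hip, a ratio of -1.19, and had 39405 and 59111 in the knee, a ratio of 0.25. Both genes thus had opposite signs in the joints, and neither hip call was kept once corrected, at -0.73 and -0.66. Eno1, the enolase of most tissues, fell in the hip from 4858 to 1933 counts, a ratio of -1.13 (-1.21 to -1.06) that was -0.60 once corrected and -0.95 with the counts of its near-identical copy Eno1b added, and stood at -0.22 in the knee (12101 and 13179 counts). Eno3, the muscle enolase (ENSMUSG00000060600, chromosome 11 from 70546593 to 70553340, plus strand), had 262394 and 125633 counts in the hip, a ratio of -0.86 that was -0.31 once corrected, and 21556 and 45985 in the knee, a ratio of 0.75. Eno2 rose in the knee from 47 to 136 counts, a ratio of 1.18 with a wide interval from 0.71 to 1.70, and had 62 and 70 counts in the hip. The 3 enolases thus took 3 courses in the knee, with Eno1 below 0, Eno3 above it and Eno2 called higher at the lowest level of all members in the knee control.

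Gapdh and Pgk1, the steps that make NADH and the first ATP, were called in neither joint. Gapdh had 386819 and 248602 counts in the hip, a log2 ratio of -0.44 that was 0.19 once corrected, and 27611 and 65831 in the knee, a ratio of 0.91 that was 1.07 once corrected and 1.10 under library size scaling. Pgk1 was at -0.22 in the hip, or 0.01 once corrected, and at -0.03 in the knee, where library size scaling gave 0.15 and the correction 0.08. The balance of these neighbours in the pathway shifted more within the knee pair than within the hip pair: per kilobase Gapdh stood 3.07-fold over Pgk1 in the knee control and 5.91-fold in the other knee library, and 18.6-fold and 16-fold in the hip libraries. Gapdh is often used as a reference gene, and against Cbfb it stood 311-fold higher per kilobase in the hip control and 173-fold in the hip library labelled Cbfb-deficient, while the knee values were 14.9 and 29.5.

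Of the 5 genes of lactate and pyruvate, 3 were called in the hip and 0 in the knee, beside 36.5% and 15.8% of all genes tested. Pdk4, the kinase that switches off pyruvate dehydrogenase and so keeps pyruvate from being burned (ENSMUSG00000019577, chromosome 6 from 5483097 to 5496339, minus strand), rose in the hip from 10462 to 29927 counts, 72.3 to 230 RPKM, a log2 ratio of 1.71 (1.68 to 1.75) and 3.28-fold. In the knee it had 1018 and 1032 counts, a ratio of -0.32 (-0.45 to -0.19). It was the largest rise of any member in the hip, but once corrected it was 1.08, below Pfkfb2 at 1.44 and Pygl at 1.35. Ldha, the lactate dehydrogenase subunit of muscle and of tissues that release lactate (ENSMUSG00000063229, chromosome 7 from 46490899 to 46505061, plus strand), fell in the hip from 115073 to 48355 counts, a ratio of -1.05, the smallest fall that still made a call. In the knee it had 35908 and 44498 counts, a ratio of -0.03 that was 0.15 under library size scaling and 0.18 once corrected. Ldhb, the heart-type subunit, fell in the hip from 19027 to 7668 counts, a ratio of -1.11, and was at 0.28 in the knee (1634 and 2502 counts), or 0.46 once corrected. The subunits thus fell side by side in the hip, where Ldha stood 5.82-fold over Ldhb per kilobase in the control and 6.07-fold in the other library, while the knee values were 21.2 and 17.1. Once corrected, their hip ratios were -0.63 and -0.56 and neither was called. Slc16a3 (MCT4), the lactate exporter of glycolytic cells, was at -0.13 in the hip, or 0.06 once corrected, and at -0.02 in the knee, where library size scaling gave 0.16 and the correction -0.22. Slc16a1 (MCT1), a lactate carrier found mainly in cells that take lactate up, was at 0.02 in the hip, where library size scaling gave -0.03 and the correction for length and GC -0.72, and at -0.56 in the knee (7523 and 6466 counts), the lowest knee ratio of any member. Slc16a3 per kilobase stood at 0.707 of Slc16a1 in the knee control and at 1.03 in the knee library labelled Cbfb-deficient.

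The highest median of any role in the knee was that of the 8 glycogen genes, 0.74, with 3 called higher and all 8 counting intervals above 0. Over all genes tested in the knee, those shares were 9% and 31.9%. The hip median of the 8 was 0.20, or -0.02 once corrected, with 4 intervals above 0 and 4 below, beside 37.3% and 33.7% of all genes. Pygm, the muscle glycogen phosphorylase that frees glucose units from glycogen (ENSMUSG00000032648, chromosome 19 of GRCm39 from 6430569 to 6448538, plus strand), rose in the knee from 12614 to 34881 counts, 126 to 312 RPKM, a log2 ratio of 1.13 (1.10 to 1.16). Hip counts of 278466 and 208333, 2476 and 2061 RPKM, gave a ratio of -0.22 that was 0.16 once corrected. The gene was called in the knee pair alone, where its corrected ratio was 1.04. The liver and brain forms moved apart in the hip: Pygl (ENSMUSG00000021069, chromosome 12 from 70237585 to 70278262, minus strand) rose from 231 to 472 counts, a ratio of 1.23 (1.00 to 1.46), and Pygb (ENSMUSG00000033059, chromosome 2 from 150628628 to 150673685, plus strand) fell from 622 to 222 counts, a ratio of -1.29 (-1.52 to -1.07). Both calls were also made once corrected, at 1.35 and -1.03. In the knee Pygl had 6588 and 10304 counts and Pygb 1129 and 1734, with ratios of 0.31 and 0.28, the latter 0.11 once corrected.

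Phosphorylase kinase, which switches the phosphorylases on, is built of 4 kinds of subunit, and its muscle-type alpha and gamma subunits are members. Phka1 (ENSMUSG00000034055, chromosome X from 101554986 to 101688874, minus strand) rose in the knee from 1580 to 4334 counts, 5.22 to 12.8 RPKM, a log2 ratio of 1.12 (1.03 to 1.20) that was 0.89 once corrected. Phkg1 (ENSMUSG00000025537, chromosome 5 from 129891125 to 129927390, minus strand) rose in the knee from 1181 to 3116 counts, 14 to 33.2 RPKM, a ratio of 1.06 (0.96 to 1.16), the smallest rise there that made a call. The gene body of Phkg1 overlaps Chchd2 on the same strand and Sumf2 on the other, and reads in the overlap could be credited to either. Both subunits thus rose beside Pygm in the knee, and in the hip neither was called, at 0.51 for Phka1 (9486 and 11752 counts) and -0.11 for Phkg1 (10014 and 8065 counts), both of which changed sign once corrected.

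The genes that build glycogen were called in neither joint. Gys1, the glycogen synthase of muscle and most other tissues, had 29243 and 18738 counts in the hip, a log2 ratio of -0.44 (-0.17 once corrected), and 2247 and 5245 in the knee, a ratio of 0.88 that was 1.06 under library size scaling. Gbe1, the branching enzyme, was above 0 in both joints, at 0.79 (0.48 once corrected) and 0.60. Ugp2, which makes the UDP-glucose that the synthase uses, was at 0.57 in the hip, where it was -0.39 once corrected, and at 0.24 in the knee. Synthase and phosphorylase kept nearly the same balance within a pair: per kilobase Gys1 stood at 0.0826 and 0.0708 of Pygm in the hip libraries and at 0.14 and 0.118 in those of the knee.

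The muscle-type isoforms were then compared with the others. In the knee, the 7 muscle-type members had a median log2 ratio of 0.83, with 3 called higher and 6 counting intervals above 0, and the other 30 members a median of 0.28, with 1 called higher, 19 intervals above 0 and 7 below. Of all genes tested there, 9% were called higher, and 31.9% had intervals above 0 and 29.7% below. The hip medians were -0.22 and -0.05, with 6 of 7 muscle-type intervals below 0 (the exception was Phka1) and 15 of 30 among the others. Of all genes tested, 33.7% had hip intervals below 0. Once corrected, the hip medians were -0.29 and 0.00, and 3 muscle-type intervals lay above 0 and 4 below, with Slc2a4 at 0.33, Pygm at 0.16 and Phkg1 at 0.12 above it and Phka1 at -0.29 below. Over the 4 isoforms of a stricter list (Pgam2, Eno3, Pygm and Phkg1) the hip median was -0.54, or -0.09 once corrected. The knee median of the muscle-type members thus lay above that of the others, and in the hip the sign of single muscle-type ratios turned with the correction.

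As a measure that needs no scaling between libraries, the share of the muscle-type isoform in its enzyme family was taken per kilobase within each library. That share in the hip was 93.4% or more in all 7 families and in both libraries. In the knee the share was higher in the library labelled Cbfb-deficient than in the control in 6 of 7 families. Pygm went from 62.6% to 74.7% of the glycogen phosphorylases, Eno3 from 70% to 82% of the enolases and Phka1 from 51.3% to 63.8% of the alpha subunits. Phkg1 went from 73.5% to 82.8%, Pfkm from 82.4% to 89.4% and Slc2a4 from 48.3% to 51.6% of its family. Pgam2 was the exception, at 97.1% and 96.1%. Counted without division by length, the same 6 shares were higher and their 95% Clopper-Pearson intervals did not overlap between the knee libraries, as for Slc2a4 at 37.6% (36.4 to 38.8%) and 40.9% (40.1 to 41.8%). The Pgam2 share was lower by that count, at 94.2% (93.8 to 94.5%) and 92.3% (91.9 to 92.6%), and its intervals did not overlap either. All these intervals cover counting error only.

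**Figure D3:**
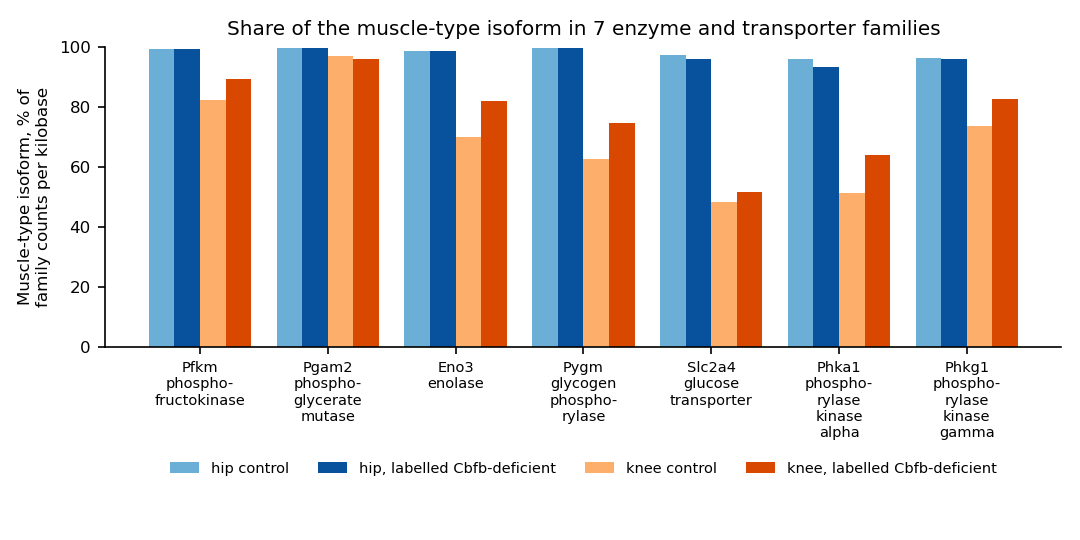
Share of the muscle-type isoform in the counts per kilobase of its family, in percent, for 7 families and 4 libraries (blue for hip and orange for knee, the darker bar for the library labelled Cbfb-deficient). Each bar is 1 library and has no error bar. In the hip all bars stand at 93.4% or more, and in the knee the darker bar is the higher of each pair except for Pgam2, at 97.1% and 96.1%.

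Skeletal muscle markers moved in the knee with these genes. All 24 of 24 markers had counting intervals above 0 in the knee and 14 were called higher, with a median log2 ratio of 1.03 and a range from 0.25 to 3.99, and the list as a whole went from 1.21% to 2.56% of gene counts. None of the markers was at 0. Of all genes tested in the knee, 31.9% had intervals above 0 and 29.7% below it, and 9% were called higher and 6.81% lower. Of the muscle-type glycolysis and glycogen genes, 6 of 7 lay within that range and Pgam2, at 0.00, lay below it. Of the other 30 members, 17 lay within the range and 13 below. The medians of the muscle-type and of the other members differed from that of the muscle list by -0.20 and -0.75 log2 units. Fast fibre genes had a median of 1.03 (13 of 13 intervals above 0), led by Myh1, a fast myosin heavy chain, at 2.29 (6724 and 41687 counts). Slow fibre genes had a median of 1.05 (10 of 10 above 0), led by Myh7, the slow myosin heavy chain, at 4.42 on only 8 and 229 counts. Lists of other cell types moved in both directions in that pair. All 10 of 10 adipocyte markers had intervals above 0, with a median of 0.89 and a summed share from 0.11% to 0.242% of counts, and so did 6 of 6 superficial zone markers, with a median of 1.06 and a share from 0.0674% to 0.183%. Of the lists that moved down, the chondrocyte list had 12 of 16 markers called lower and a median of -1.69, the osteoclast list 4 of 7 and -1.43 (0.343% to 0.191% of counts), the osteoblast and osteocyte list 4 of 10 and -0.39 (1.21% to 0.707%) and the erythroid list 4 of 9 and -0.54, which became 1 of 9 and -0.35 once corrected. The part of muscle RNA, or of these other cell types, in the members' ratios was not tested.

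The muscle list did not move one way in the hip, with 10 intervals above 0, 13 below and a median of -0.11 that was 0.23 once corrected. Within it, Ttn, which encodes the giant spring protein titin, had 67185 and 469639 counts and Neb was at 2.71 (1.91 once corrected), while the short actin transcript Acta1 was at -1.09 (1645743 and 674897 counts), or -0.50 once corrected, and Ckm, muscle creatine kinase, at -0.93, or -0.81. Fast fibre genes had a median of 0.19 (0.44 once corrected) and slow fibre genes of -0.62 (-0.32 once corrected), the latter with Myl3 at -3.10 and 5 of 10 called lower, or 1 once corrected. All 7 muscle-type and all 30 other members lay within the range of the muscle list in the hip, from -1.97 to 3.16. Other lists had lower medians there: fibroblast and tendon -1.55 (-1.79 once corrected, 4 of 7 called lower), macrophage -1.14 (-0.59, 4 of 7), osteoblast and osteocyte -0.90 (-0.98, 5 of 10), chondrocyte -0.89 (-0.48, 5 of 15) and erythroid -0.80 (-0.88, 4 of 9). Their part in the hip ratios of the members was not tested. Of all genes tested in the hip, 37.3% had intervals above 0, 33.7% had intervals below it and 16.3% were called lower.

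Ratios were also set beside the length and GC content of the transcripts. Over the 37 members, Spearman's rho of the hip log2 ratio was 0.49 with transcript length and -0.69 with GC content, where all 19585 genes with a length gave 0.22 and -0.38. The members share the 2 libraries, so these values describe them and carry no test. The 12 members with the shortest transcripts (870 to 2448 bases), among them Pgam2, Tpi1, Ldha, Ldhb, Eno1 and Pkm, had a median hip ratio of -1.02 with 11 of 12 below 0. The 13 of middle length had a median of 0.34 and the 12 longest of 0.07. In the knee rho over the members was 0.03 with length and 0.06 with GC content, where all 20829 genes with a length gave 0.25 and 0.03. For the 7 muscle-type members alone it was 0.68 and -0.79, and 0.64 and -0.75 for their hip ratios. The median knee ratio of the 12 shortest was 0.28. Once each ratio was corrected for length and for GC content in turn, 5 of the 10 hip calls were left. These were Pfkfb2, Pygl and Pdk4 higher and Pgam2 and Pygb lower, where 29.1% of all genes were called. Of the 37 hip ratios, 10 changed sign, and the median of the lower glycolysis genes was -0.56. In the knee 4 members were again called, with Gapdh at 1.07 in place of Phka1.

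**Figure D4:**
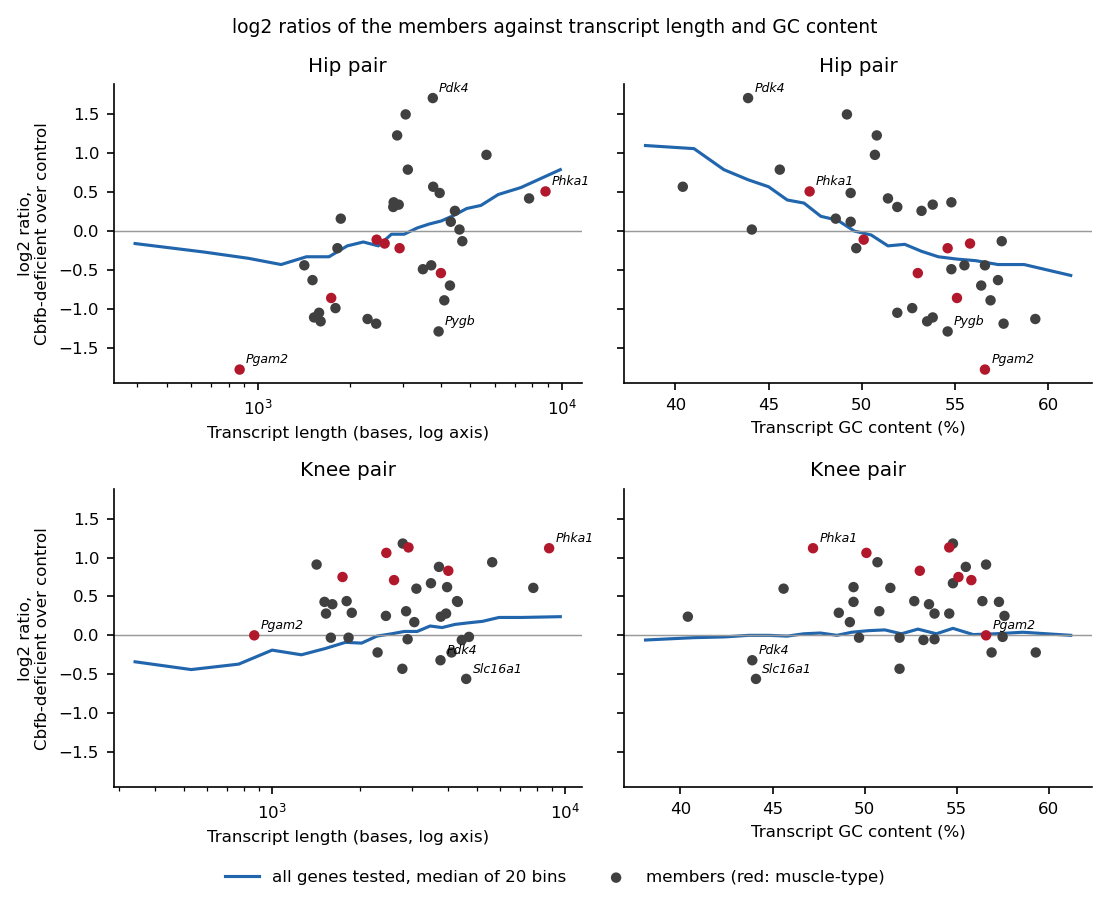
log2 ratio of the members against the length (left, log axis, in bases) and the GC content (right, in percent) of their canonical transcript, for the hip pair (top) and the knee pair (bottom). Each point is 1 gene, with muscle-type isoforms in red and a few genes named, and the blue line is the median over all genes tested in 20 bins of equal size. Over the 37 members rho is 0.49 for length and -0.69 for GC content in the top panels and 0.03 and 0.06 in the bottom ones, where the 7 red points alone have 0.68 and -0.79.

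The hip and knee ratios of the members were set side by side. Over the 37 genes Spearman's rho was 0.08 and Pearson's r 0.04, given as a description because the points share their libraries. In 16 genes the ratio was below 0 in the hip and above 0 in the knee, in 5 it was the reverse, in 11 both were above 0 and in 5 both were below, although 10 hip signs and 2 knee signs turned once corrected. The knee ratio was the higher one in 27 of 37. The members thus followed no shared order in the 2 joints, and no test of the difference was possible with 1 library per group.

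Beyond the members, 63 other genes of glycolysis, pyruvate and glycogen metabolism were read as one list. In the hip, 57 were tested, with 11 called higher and 1 lower and a median log2 ratio of 0.17. In the knee, 58 were tested, with 11 called higher and 2 lower and a median of 0.50. The shares of genes called over the whole tables were those given above, and once corrected for length and GC the list's median was -0.00 for the hip, with 8 called higher and 3 lower, and 0.42 for the knee. Among the genes of the list with 100 or more counts, the largest hip ratios belonged to regulatory subunits that tie phosphatase 1 to glycogen: Ppp1r3a rose from 2333 to 11090 counts, a ratio of 2.45 that was 1.07 once corrected, and Ppp1r3c from 5121 to 20715, a ratio of 2.21 that was 1.91. Pgm2l1, a phosphoglucomutase relative that makes glucose 1,6-bisphosphate, rose by a ratio of 1.91 in the hip, a value that was 0.49 once corrected. In the knee, the fructose transporter Slc2a5 fell from 97 to 6 counts, a ratio of -4.25 (-5.84 to -3.18). Pdpr, a regulator of the phosphatase that switches pyruvate dehydrogenase on, rose from 65 to 507 counts, a ratio of 2.61, and Ldhc, the testis-type lactate dehydrogenase, fell from 80 to 32, a ratio of -1.65.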

How the data were processed

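Poly-A RNA-seq of 4 libraries, 1 per group, was analysed. The authors deposited raw read counts per Ensembl gene, not normalized. Per the labels the reads were processed with STAR 2.0, FastQC 0.11.3 and mm10, whereas the study's methods give GRCm39 and a later STAR release, so the build of the counts is uncertain. The hip tables close with the summary lines that HTSeq writes, which held 25.8% and 24.6% of their counts and were left out. The program behind the knee counts and the strand setting are not given in the sources used here.

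Identifiers were matched to GENCODE M39 (GRCm39), with 91.8% (hip) and 92.6% (knee) matched. All gene positions, transcript lengths and GC contents come from it. Libraries were scaled within each pair by TMM (edgeR 4.0.16, R 4.3.3), and in an alternative by the size factors of DESeq2 1.42.0. Ratios had 0.5 added to both counts, needed 10 counts over the pair, and carry 95% Clopper-Pearson intervals, which treat reads as independent molecules and so cover counting error only. The ratio function was tested on simulated counts. The length trend and then the GC trend, each the median of 20 bins, were removed in 2 rounds, with the overall median kept. Python 3.11.15 with numpy 2.4.6, pandas 2.3.3, scipy 1.17.1 and matplotlib 3.10.9 did the rest.

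The members and lists were chosen with earlier results of these data known. Of other lists, the genes named were at most the 3 with the largest ratio per joint among those with 100 or more counts, with Acta1, Ckm, Col2a1 and Matn1 added after their values were seen. A gene named for one joint could have its value in the other given too, as for Car12, which was under 100 counts in the hip. The removal of the trend was first chosen after the data were seen.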

Additional observations from a re-analysis of the deposited data

Results flagged for a closer look

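For 7 members, a ratio past the threshold in one joint stood against a ratio of the opposite sign in the other, with the counting interval on the far side of 0. The difference between the joints was not tested, since each group is 1 library. The share of all genes that meet this rule was not computed. Calls alone took in 36.5% of all genes tested in the hip and 15.8% in the knee, so the count of 7 is not read as a trait of the members. Tpi1 had a log2 ratio of -1.16 in the hip pair and 0.40 in the knee pair. Pkm was at -1.19 and 0.25, and Ldhb at -1.11 and 0.28. Pygb was at -1.29 and 0.28, and it was the one of these 4 hip falls that was also called once corrected for length and GC. Pdk4 went the other way, at 1.71 in the hip and -0.32 in the knee. Pygm was at -0.22 and 1.13 and Phkg1 at -0.11 and 1.06, but once corrected their hip ratios were 0.16 and 0.12, so that the opposition of sign was gone. The joints also differ in age, Cre line, kind of control, form and gene set of the count tables, and in their content of muscle, bone and other tissue, and these cannot be told apart.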

How the results depend on the processing

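No paired analysis was possible because each comparison sets 1 library against 1 and no result comes from a test. A model that takes the 2 joints as replicate pairs was not run, since their mice, ages and controls were not alike. In the hip, the 10 members called became 11 (Pgam1 added) under library size scaling, with DESeq2 size factors and without the muscle and erythroid lists in the library size, and 5 (3 higher, 2 lower) once corrected for length and GC, 20 at a threshold of 0.5 (7 higher, 13 lower, with 55.4% of all genes called) and 2 at a threshold of 1.5 (23.9% of all genes). The hip median of the muscle-type members, -0.22, was -0.26 under library size scaling and without the muscle and erythroid lists in the library size, -0.25 with DESeq2 size factors, -0.29 once corrected and -0.54 over the 4 isoforms of the stricter list (Pgam2, Eno3, Pygm and Phkg1). In the knee, the 4 calls became 8 under library size scaling (Pfkm, Pfkfb3, Gapdh and Gys1 were added, with 17.3% of all genes called), 7 without the muscle and erythroid lists in the library size (16.5%), 15 at a threshold of 0.5 (14 higher, 1 lower, with 34.4% of all genes) and 0 at 1.5 (9.11%). The knee median of the muscle-type members, 0.83, was 1.01, 0.95 and 0.91 under library size scaling, without those lists and over the stricter list, and that of the others, 0.28, was 0.47 and 0.41 under the first 2. Once corrected, the hip median of the other members went from -0.05 to 0.00, and signs turned for the hip medians of the glycogen genes (0.20 to -0.02), the muscle list (-0.11 to 0.23) and the pentose phosphate genes (-0.12 to 0.12, and 0.01 to -0.10 in the knee). An added count of 2, a minimum of 10 counts in each library and no minimum left the members called at 10 and 4. Depth limits Aldoc in the hip (12 and 13 counts) and Eno2 in both joints (47 to 136 counts).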

Other observations

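Genes around the pathway were read in the same way. Of the 8 pentose phosphate genes, which make NADPH and ribose from glucose 6-phosphate, 1 was called in the hip (Rpe, 119 to 252 counts, a log2 ratio of 1.28 that was 0.11 once corrected for length and GC) and 0 in the knee, with medians of -0.12 and 0.01 that were 0.12 and -0.10 once corrected. Of all genes the rule called 20.2% higher and 16.3% lower for the hip pair, against 9% and 6.81% for that of the knee. Pgls, the lactonase of that pathway, was below 0 in both joints, at -0.98 (-0.27 once corrected) and -0.72. G6pdx, its entry enzyme, was at 0.68 in the knee (2438 and 4941 counts).

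The list of 22 genes of the low-oxygen response mixed sensors and regulators with target genes, so its calls do not count induced genes. Of the 22, 10 were called higher and 1 lower in the hip, beside 20.2% and 16.3% of all genes. Their median was 0.76, with 13 intervals above 0 and 9 below. Once corrected, 6 were called higher and 1 lower, with a median of 0.26, and Kdm3a, at 0.83, was among those no longer called. Ddit4, a brake on mTOR signalling, rose from 467 to 6726 counts, a log2 ratio of 4.04 (4.67 once corrected), Egln3, an oxygen sensor, from 2627 to 10732, a ratio of 2.23 (2.47 once corrected), and Kdm3a, a histone demethylase, from 290 to 655, a ratio of 1.37. In the knee the median of the 22 was 0.29, with 12 intervals above 0 and 4 below. There 0 were called higher and 1 lower, beside 9% and 6.81% of all genes. The gene called lower was Car12, a carbonic anhydrase, in both joints, from 47 to 3 counts in the hip, a ratio of -3.56, and from 421 to 26 in the knee, a ratio of -4.33.

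Some members have near-identical copies elsewhere in the genome, and the counts of these were read after the members' values were seen. Eno1b, a copy of Eno1, had 16 counts in the hip control and 259 in the deficient-labelled library, a ratio of 4.17 on the log2 scale (3.49 to 5.04), the latter count 13.4% of the count of Eno1 there. Summed with its copy, Eno1 had a hip ratio of -0.95 rather than -1.13 and would not be called, and Pgam1 with its 2 copies had -1.01 rather than -0.99 and would be. In the knee Eno1b had 17 and 30 counts. For Aldoa, Gapdh, Ldha, Ldhb and Pgk1 the copies held at most 1.1% of the count of the member in each library and the sums differed from the member alone by 0.01 or less.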
